A study of Homo sapiens with 9 samples.

Results

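Chemokine genes whose products recruit lymphocytes, monocytes and dendritic cells were followed in HT-29 cells, a colorectal adenocarcinoma line used as a model of the intestinal epithelium. The genes were grouped by the cells their products attract, with earlier results of these data known, and were CCL20, CCL22, CCL2, CCL5, CCL28, CX3CL1, CXCL10, CXCL11 and CXCL16, which are 9 of the 62710 distinct gene identifiers in the count table. All cells were wild-type HT-29, so every group was the same single tumor line. Poly(A)-enriched RNA was sequenced in 9 libraries. Of these, 3 came from cells left without stimulation, 3 from cells given flagellin at 500 ng/mL and 3 from cells given ADP-heptose at 500 ng/mL, each for 2.5 h by the study's methods. No vehicle is named for the non-stimulated cells.

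Chemokines are small secreted or membrane-anchored proteins that bind G protein-coupled receptors on leukocytes and direct their movement along a gradient. CC, CXC and CX3C chemokines are named after the spacing of their first cysteines. In the gut, epithelial cells are a source of several of them, and the transcription factors NF-κB and IRF control many chemokine promoters. ADP-heptose, a sugar intermediate of lipopolysaccharide synthesis, is sensed in the cytosol by the kinase ALPK1, and flagellin, the protein of bacterial flagella, is sensed by TLR5.

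After ADP-heptose, 7 of the 8 chemokines that could be tested rose and 6 of them rose at least 2-fold, where 7.48% and 2.89% of all tested genes did. CCL20, CX3CL1 and CCL22 also rose after flagellin, each less than after ADP-heptose, where 0.368% of all tested genes rose after flagellin. CXCL10, CXCL11 and CCL2 rose from almost no counts after ADP-heptose and did not pass the test after flagellin, and CXCL10 and CCL2 also differed between the stimuli. They could be tested only because of their counts in the ADP-heptose libraries. CXCL16 rose by less than 2-fold after ADP-heptose, and the groups of CCL28 overlapped in all comparisons. CCL5 was close to absent in every library. The calls of CCL22 after flagellin, and of CXCL11 and CXCL16 after ADP-heptose, were lost in some alternative fits.

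The promoters are shown first because 4 of the 5 genes with a window share a motif, which 11.3% of all windows hold. One window of CCL28, which holds none of the motifs searched, is printed beside them. RefSeq (GRCh38.p14) gave 6 promoter windows for 5 of the 9 genes, from 250 bases before to 50 bases after the transcript start. Sequences run 5′ to 3′ along the strand of the gene, and capitals mark matches to the κB consensus, to the core of the interferon-stimulated response element (ISRE), GAAANNGAA, to the AP-1 motif TGANTCA and to TATAAA, searched on both strands.
CCL20 promoter, chr2:227813592-227813891, plus strand: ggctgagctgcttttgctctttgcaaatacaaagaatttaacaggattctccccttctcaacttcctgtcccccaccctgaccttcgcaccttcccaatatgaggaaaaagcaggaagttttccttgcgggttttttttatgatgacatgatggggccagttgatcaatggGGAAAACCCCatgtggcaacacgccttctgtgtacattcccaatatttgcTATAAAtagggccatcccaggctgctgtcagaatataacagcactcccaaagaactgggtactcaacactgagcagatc
CXCL10 promoter, chr4:76023448-76023747, minus strand: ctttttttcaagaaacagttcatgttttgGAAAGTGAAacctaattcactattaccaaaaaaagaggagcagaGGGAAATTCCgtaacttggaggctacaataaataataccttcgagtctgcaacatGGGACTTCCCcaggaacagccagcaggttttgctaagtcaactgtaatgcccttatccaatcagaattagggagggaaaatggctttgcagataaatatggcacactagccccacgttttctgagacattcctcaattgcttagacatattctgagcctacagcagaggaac
CXCL11 promoter, chr4:76036021-76036320, minus strand: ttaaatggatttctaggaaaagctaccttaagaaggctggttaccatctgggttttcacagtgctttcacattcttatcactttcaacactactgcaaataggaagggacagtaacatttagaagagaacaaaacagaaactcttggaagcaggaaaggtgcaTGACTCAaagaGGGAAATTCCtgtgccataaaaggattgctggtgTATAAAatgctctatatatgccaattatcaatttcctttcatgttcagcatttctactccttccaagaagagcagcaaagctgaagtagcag
CCL22 promoter, chr16:57358533-57358832, plus strand: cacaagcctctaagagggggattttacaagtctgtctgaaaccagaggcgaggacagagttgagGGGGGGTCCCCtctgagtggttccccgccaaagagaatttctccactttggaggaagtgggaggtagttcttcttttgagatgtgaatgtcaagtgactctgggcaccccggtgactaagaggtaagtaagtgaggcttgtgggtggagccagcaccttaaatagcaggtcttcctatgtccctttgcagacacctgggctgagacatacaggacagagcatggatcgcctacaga
CCL28 promoter, chr5:43412342-43412641, minus strand: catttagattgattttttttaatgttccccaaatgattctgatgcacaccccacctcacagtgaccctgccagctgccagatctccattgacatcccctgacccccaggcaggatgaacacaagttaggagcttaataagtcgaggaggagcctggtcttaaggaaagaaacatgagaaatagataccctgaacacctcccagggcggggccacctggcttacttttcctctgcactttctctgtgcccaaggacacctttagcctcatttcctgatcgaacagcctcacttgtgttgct

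The κB consensus, the 10-base site bound by NF-κB dimers, was found in the windows of CCL20, CXCL10, CXCL11 and CCL22, and in 11.3% of all 35116 promoter windows. It lay 79 to 70 bases before the start in CCL20, on the minus strand, and 76 to 67 bases before it in CXCL11. CXCL10 held 2 such stretches, 177 to 168 and 122 to 113 bases before the start, and CCL22 held 1 run of overlapping matches at 186 to 176 bases. The ISRE core occurred 221 to 213 bases before the start of CXCL10 and in 8.11% of all windows. The AP-1 motif was found in CXCL11 at 87 to 81 bases (7.71% of all windows), just upstream of its κB match. TATAAA occurred at 29 to 24 bases in CCL20 and at 42 to 37 bases in CXCL11 (11.5% of all windows). Both windows of CCL28 held none of the 4 motifs. A match is a match of letters only, and binding was not measured here. CCL2, CCL5, CX3CL1 and CXCL16 had no window and were not searched, and a link of motif and change was not tested.

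Total counts ranged from 50054773 to 58272772 in the ADP-heptose libraries, from 30770448 to 38304035 with flagellin and from 35040844 to 37537705 without stimulation. Replicate 3 of the ADP-heptose cells differed most from its group. The SD of its log2 differences over genes was 0.363 and 0.371 against the other libraries, which differed from each other by 0.109. Without it the counts of higher members given below were the same, 7 against non-stimulated cells and 5 against flagellin. Of 11 markers of colon epithelium, 10 could be tested, CDX2 had 17 to 48 counts and CDX1 at most 12. The summed level of the 11 was 8688 to 9108 CPM (counts scaled to equal library size) without stimulation, 8912 to 9288 with flagellin and 9522 to 13395 with ADP-heptose. Of 12 leukocyte markers, the 11 other than LYZ had at most 15 counts, PTPRC had at most 2, and CD3E and MS4A1 were at 0 in all libraries. LYZ was high in every library, with 13826 to 23970 counts, and did not pass after ADP-heptose (log2 fold change -0.003, adjusted p 0.983). Of the epithelial markers KRT20 passed the test after ADP-heptose (log2 fold change 0.40, adjusted p 0.000941). Of 9 stromal and endothelial markers, all but COL1A1 had at most 6 counts. COL1A1 had 437 to 1019 counts and was also higher after ADP-heptose (0.41, adjusted p 0.0311). The part of these markers in the chemokine values was not tested. In bulk RNA, a change in the share of responding cells and a change in RNA per cell cannot be told apart.

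CCL20 is the ligand of CCR6 and draws immature dendritic cells, B cells and Th17 cells. Its gene lies at chr2:227805739-227817564 on the plus strand (GRCh38). Normalized counts, which are counts scaled by effective library size, were 66.0, 74.1 and 75.7 in the non-stimulated libraries. They were 2005, 1949 and 1813 with flagellin. They were 17664, 19128 and 18793 with ADP-heptose. The groups were far apart, and no library of one lay near another. The means were 71.9 ± 5.18 (SD, n = 3), 1922 ± 98.6 and 18528 ± 767. CCL20 rose 257-fold after ADP-heptose, or 8.01 on the log2 scale (standard error 0.10, 95% confidence interval 7.79 to 8.23, edgeR's quasi-likelihood test with Benjamini-Hochberg adjustment, adjusted p 1.91e-13). After flagellin it rose 26.7-fold (log2 fold change 4.74, standard error 0.09, adjusted p 4.06e-11). The direct comparison of ADP-heptose with flagellin gave 3.27 on the log2 scale (standard error 0.07, 3.11 to 3.43, adjusted p 5.28e-11), or 9.64-fold.

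CX3CL1, known as fractalkine, is made as a membrane-anchored protein that tethers cells bearing CX3CR1, among them monocytes and cytotoxic lymphocytes, and can be shed. It lies at chr16:57372458-57385048, 6.268 kb downstream of CCL22 and on the same strand. Normalized counts were 340.4, 379 and 371 without stimulation. They were 954, 900.5 and 1007 with flagellin and 8597, 8786 and 8593 with ADP-heptose. All 3 flagellin libraries lay above all non-stimulated ones, and all ADP-heptose libraries lay above both. The ADP-heptose group had a mean of 8658 ± 110 (SD, n = 3) and did not overlap the others. The log2 fold change was 4.57 after ADP-heptose (standard error 0.08, 95% confidence interval 4.40 to 4.75, adjusted p 3.69e-12) and 1.39 after flagellin (standard error 0.08, 1.23 to 1.56, adjusted p 9.91e-07). In fold terms these were 23.8 and 2.62. The direct comparison of the stimuli gave 3.18 (standard error 0.08, adjusted p 6.03e-11).

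CCL22, a ligand of CCR4 on regulatory and Th2 cells that is best known from macrophages and dendritic cells, lies at chr16:57358772-57366190. It was read at much lower counts, 4, 8 and 8 without stimulation, 21, 43 and 32 with flagellin and 219, 240 and 193 with ADP-heptose. The 3 groups did not overlap. As normalized counts the means were 7.25 ± 2.71 (SD, n = 3), 37.2 ± 14.1 and 175 ± 6.30. The log2 fold change was 4.58 after ADP-heptose (standard error 0.33, 3.88 to 5.34, adjusted p 1.36e-06) and 2.24 between the stimuli (standard error 0.27, adjusted p 0.000138). After flagellin it was 2.34 (standard error 0.38, 1.53 to 3.20, adjusted p 0.0177), a 5.07-fold rise that did not hold in every alternative. Its adjusted p was 0.0947 without flagellin replicate 2, 0.0869 without flagellin replicate 3, and 0.126, 0.0742 and 0.0807 without non-stimulated replicates 1, 2 and 3, with log2 fold changes of 2.05 to 2.52 over these 5 fits.

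**Figure D1:**
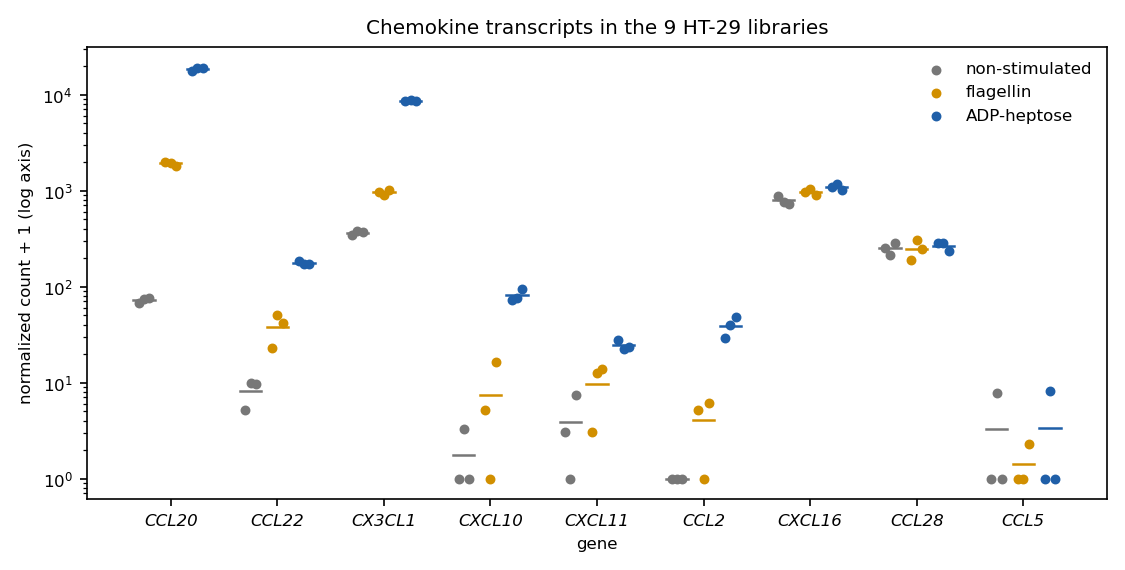
Normalized count plus 1 (log axis) of each of the 9 chemokines in each HT-29 library. Points are libraries (gray, non-stimulated; orange, flagellin; blue, ADP-heptose) and short lines are group means (n = 3). CCL20, CX3CL1 and CCL22 form 3 separate steps, CXCL10, CXCL11 and CCL2 start near 0, and the groups of CCL28 and CCL5 overlap.

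CXCL10 and CXCL11 are ligands of CXCR3 on activated T cells and NK cells and are classical interferon-induced genes. They are neighbors on the minus strand of chromosome 4, at chr4:76021117-76023497 and chr4:76033682-76041415, with 10.185 kb between them. CXCL10 had 0, 2 and 0 counts without stimulation, 4, 0 and 12 with flagellin and 85, 106 and 105 with ADP-heptose. Every ADP-heptose library was far above the rest, whereas the flagellin libraries overlapped the non-stimulated ones. The ratio of summed counts, scaled for depth, was 110.7 with an exact 95% counting interval of 19.6 to 4402, and the adjusted p was 0.000269 (edgeR's quasi-likelihood test). The width of the interval comes from the 2 counts in the non-stimulated group, all in replicate 2. Without that library the group was at 0 and the adjusted p was 0.00224. For flagellin the same ratio was 8.49 (1.14 to 377) with an adjusted p of 1. Its log2 fold change of 2.91 became 1.44 without flagellin replicate 3. Between ADP-heptose and flagellin the log2 fold change of CXCL10 was 3.66 (standard error 0.64, 2.29 to 5.09, adjusted p 0.00271). That value became 5.13 without flagellin replicate 3, which held 12 of the 16 flagellin counts.

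CXCL11 was lower, with 2, 0 and 6 counts without stimulation, 2, 10 and 10 with flagellin and 32, 30 and 25 with ADP-heptose. The ADP-heptose libraries did not overlap either group, and the other groups overlapped each other. The log2 fold change after ADP-heptose was 2.98 (standard error 0.76, 1.36 to 4.70, adjusted p 0.0224), with a ratio of summed counts of 8.13 (2.995 to 31.5). This call rested on single libraries. The adjusted p was 0.0577 without ADP-heptose replicate 1, 0.103 without non-stimulated replicate 1 and 0.0696 without non-stimulated replicate 2, and the log2 fold change was 4.30 without non-stimulated replicate 3 (adjusted p 0.0192). After flagellin CXCL11 had a log2 fold change of 1.54 (standard error 0.87, -0.33 to 3.48, adjusted p 1), which became 0.99 without non-stimulated replicate 2 and 2.87 without non-stimulated replicate 3. Against flagellin, ADP-heptose gave 1.44 (standard error 0.65, 0.04 to 2.87, adjusted p 0.224). Both genes lie within ART3 on the opposite strand, share no exon base with it, and ART3 had 0 to 9 counts.

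CCL2, the main monocyte attractant and ligand of CCR2, lies at chr17:34255218-34257203. It had 0 counts in all 3 non-stimulated libraries, 4, 0 and 4 with flagellin and 34, 54 and 53 with ADP-heptose. With a floor of 3 counts per library, CCL2 was at least 11.75-fold higher after ADP-heptose (adjusted p 0.000613). With 2 counts taken as 1 fragment, and so a floor of 6 counts, the bound was 5.876-fold. Between ADP-heptose and flagellin the log2 difference was 3.58 (standard error 0.65, 2.18 to 5.10, adjusted p 0.00606), with no overlap. The 8 counts with flagellin against 0 gave an adjusted p of 1, and a difference was not detectable at this depth. CCL5, which attracts T cells and monocytes and lies at chr17:35871491-35880793, had 0, 6 and 0 counts without stimulation, 0, 0 and 1 with flagellin and 0, 10 and 0 with ADP-heptose. In each group a single library held all counts, and the gene was too low to be tested.

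CXCL16, the membrane-anchored ligand of CXCR6 on T cells and NKT cells, lies at chr17:4733526-4739922 on the minus strand. Normalized counts were 876, 766 and 729 without stimulation, 955, 1047 and 902 with flagellin and 1087, 1164 and 1021 with ADP-heptose. Both stimulated groups lay above every non-stimulated library, and they overlapped each other. The rise after ADP-heptose was 1.38-fold (log2 fold change 0.47, standard error 0.10, 0.26 to 0.67, adjusted p 0.00704). With library totals in place of TMM scaling the log2 value was 0.33 (adjusted p 0.0547), which is 0.46 above the median of all genes under that scaling. After flagellin CXCL16 gave 0.29 (standard error 0.10, 0.08 to 0.50, adjusted p 0.838), and between the stimuli 0.17 (-0.04 to 0.38, adjusted p 0.338). MED11, on the opposite strand, overlaps 85 exon bases (3.04%) of CXCL16. It had 131 to 285 counts and a log2 fold change of -0.12 after ADP-heptose (adjusted p 0.64).

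CCL28, a mucosal chemokine that draws plasma cells through CCR10, lies at chr5:43376645-43412391 on the minus strand. Its counts were 246, 188 and 261 without stimulation, 183, 263 and 194 with flagellin and 339, 395 and 260 in the deeper ADP-heptose libraries. As normalized counts the means were 249 ± 35.9 (SD, n = 3), 246 ± 55.9 and 265 ± 29.4, and all groups overlapped. The log2 fold change was 0.09 after ADP-heptose (95% confidence interval -0.28 to 0.47, adjusted p 0.771), -0.02 after flagellin (-0.41 to 0.36, adjusted p 1) and 0.11 between the stimuli (-0.26 to 0.49, adjusted p 0.75). These intervals exclude a 2-fold change in either direction. The sign of each value turned in some alternatives.

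**Figure D2:**
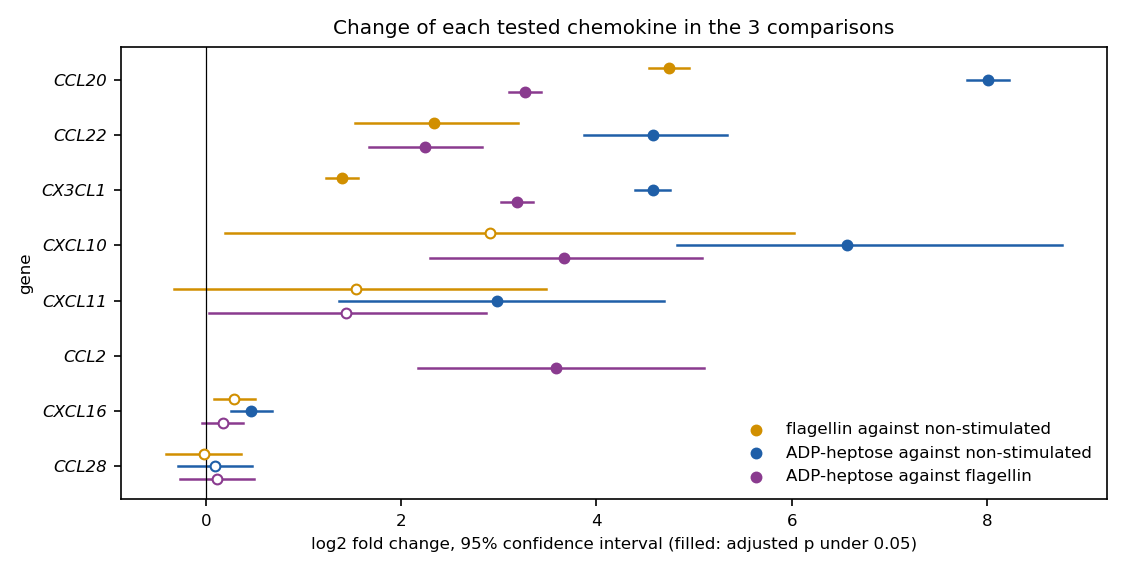
Log2 fold change with its 95% confidence interval for the 8 tested chemokines in the 3 comparisons (filled points, adjusted p under 0.05). CCL2 has a point only against flagellin, since its non-stimulated group is at 0. The intervals of CCL20 and CX3CL1 are narrow and far from 0, those of CXCL10, CXCL11 and CCL2 are wide, and those of CCL28 all span 0.

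The calls of the members were set beside those of the whole table. After ADP-heptose 7 of the 8 tested members were higher at an adjusted p under 0.05, where 7.48% of the 17412 tested genes were higher, and 6 were higher at least 2-fold, where 2.89% of all genes were. None was lower, where 4.42% of all genes were. CXCL10, CXCL11 and CCL2 passed the count filter only through their ADP-heptose libraries. They entered these counts, and the median below, through the group where they were high, so the shares are a description only. After flagellin 3 were higher and all 3 at least 2-fold, against 0.368% and 0.212% of all genes, and none was lower, against 0.0115%. In the direct comparison 5 were higher with ADP-heptose and all 5 at least 2-fold, against 5.4% and 2.06%, and none was lower, against 2.76%. Of these 5, CXCL10 and CCL2 had passed the filter only through their ADP-heptose libraries. These shares, and the median between the stimuli, are therefore a description only. The median log2 fold change after ADP-heptose was 4.06 with CCL2 at its bound (3.78 at the lower bound), against 0.01 over all tested genes. After flagellin it was 1.54 over the 7 genes with a fitted value, against 0.00. Between the stimuli it was 2.71, against 0.01. The comparisons share libraries with each other, so their values are given side by side only. The number of higher members stayed between 6 and 7, between 2 and 3 and at 5 in these comparisons when each of the 9 libraries was left out in turn.

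Levels of different genes were compared as CPM per kilobase of exon, with the exons of all annotated transcripts of a gene merged. The transcripts expressed may be shorter, so the orders and shares of genes depend on this choice. Without stimulation CXCL16 led with 7.02 ± 0.68 (SD, n = 3). CX3CL1 (1.51 ± 0.08), CCL28 (1.37 ± 0.20) and CCL20 (1.12 ± 0.08) followed, and neighbors in this order overlapped. The other 5 genes were at or below 0.0614. With flagellin the order was CCL20 (29.9 ± 1.5), CXCL16 (8.60 ± 0.65), CX3CL1 (3.96 ± 0.22), CCL28 (1.35 ± 0.31) and CCL22 (0.316 ± 0.12), with no overlap between neighbors. With ADP-heptose CCL20 reached 288 ± 11.9 and CX3CL1 35.9 ± 0.46, so that both now exceeded CXCL16 (9.69 ± 0.63). CXCL10 (1.69 ± 0.25), CCL22 (1.48 ± 0.05) and CCL28 (1.46 ± 0.16) overlapped one another and stood above CCL2 (0.475 ± 0.12) and CXCL11 (0.305 ± 0.04).

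The summed level of the 9 genes was 10.9 to 11.7 without stimulation, 42.7 to 45.6 with flagellin and 326 to 350 with ADP-heptose. CXCL16 made up 59.4% to 66.6% of it without stimulation, 18.8% to 20.4% with flagellin and 2.65% to 2.97% with ADP-heptose. CCL20 made up 8.81% to 10.8%, 66.1% to 69.3% and 84.5% to 85.3%. The 9-gene pool thus passed from CXCL16 to CCL20 as its largest member, although the level of CXCL16 itself did not fall. CX3CL1 made up 12.1% to 14.4%, 8.19% to 9.78% and 10.4% to 10.95%, lower in both stimulated groups with no overlap. CCL28 held 10.6% to 14.2% without stimulation and 0.370% to 0.476% with ADP-heptose, at a level that did not change past the threshold.

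The neighborhoods of the genes were examined because several chemokines lie in clusters. Within 100 kb of the 9 genes the GENCODE 29 annotation places 77 other genes, of which 32 could be tested. After ADP-heptose 2 of the 32 were higher, none was lower and 30 did not pass, and after flagellin 0 passed. The share of 6.25% higher was close to the 7.48% of all tested genes. The 2 were ZMYND15, beside CXCL16 on the opposite strand (log2 fold change 1.68, adjusted p 0.0108, 9 to 112 counts), and HMGCS1, an enzyme of cholesterol synthesis near CCL28 (0.73, adjusted p 5.38e-05). CIAPIN1 (0.10), COQ9 (0.00) and POLR2C (0.14), which lie downstream of CCL22 and CX3CL1, did not pass. Nor did SDAD1 (-0.11) and NUP54 (0.02) on either side of CXCL10 and CXCL11. The clustered chemokines next to the members were at low counts. CCL17, downstream of CX3CL1, had at most 3, CXCL9, beside CXCL10, had at most 6, and CCL16, near CCL5, had at most 12. CCL7, CCL8, CCL11 and CCL13, beside CCL2, had 0 in every library.

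Among the other 34 chemokine genes, 7 could be tested and 4 rose in each comparison. Of all tested genes 7.48% were higher after ADP-heptose, 0.368% after flagellin and 5.4% with ADP-heptose against flagellin. The 4 were all neutrophil attractants of the CXCR2 family. Their log2 fold changes after ADP-heptose and after flagellin were 7.68 and 2.49 for CXCL8, 7.16 and 3.78 for CXCL2, 6.47 and 3.24 for CXCL1, and 5.63 and 2.32 for CXCL3. CCL14, CCL15 and CCL24 did not pass, and the 27 others had at most 12 counts, 16 of them 0 in every library. The cells carried few transcripts of the matching receptors. Of the 10 receptors of the 9 chemokines, 9 had at most 12 counts and CXCR6, with 4 to 28, had a log2 fold change of -0.14 after ADP-heptose (adjusted p 0.892). Of 13 other chemokine receptors 3 were tested, and the atypical receptors CCRL2 (1.44, adjusted p 2.37e-05) and ACKR4 (1.26, adjusted p 0.00364) rose after ADP-heptose and not after flagellin past the threshold. Both were also higher with ADP-heptose than with flagellin, by 1.16 (adjusted p 0.000186) and 0.99 (adjusted p 0.0186).

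Proteases that shed or trim these chemokines were measured as transcripts. ADAM10 and ADAM17, the sheddases of CX3CL1 and CXCL16, had log2 fold changes of -0.14 (adjusted p 0.329) and 0.13 (adjusted p 0.611) after ADP-heptose. With ADP-heptose, ADAM17 had normalized counts of 1744, 1732 and 1067. The non-stimulated libraries had 1413, 1323 and 1408, so ADP-heptose replicate 3 lay below them and the others above. RHBDF2, a partner of ADAM17, rose by 0.43 (adjusted p 0.001), and CTSS, the protease cathepsin S, by 1.90 (adjusted p 0.000219). DPP4, which removes the N-terminal dipeptide of CXCL10 and other chemokines, fell by 0.27 on the log2 scale (adjusted p 0.029). After flagellin none of the 6 proteases listed passed the test.

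Of 11 transcription factors of the NF-κB and interferon pathways, 7 rose after ADP-heptose and 4 after flagellin. Of all tested genes 7.48% and 0.368% did. After ADP-heptose the rises were led by IRF1 (log2 fold change 3.61, adjusted p 1.05e-10), NFKB2 (3.24, adjusted p 1.72e-10) and RELB (3.12, adjusted p 4.31e-09), with NFKB1 at 2.01, REL at 1.72 and IRF7 at 1.05. The REL libraries were uneven, with normalized counts of 1152, 1274 and 464 with ADP-heptose, against 252 to 335 without stimulation. ADP-heptose replicate 3 lay near flagellin replicate 3 (438). After flagellin RELB (1.09, adjusted p 0.000558), NFKB2 (1.08, adjusted p 2.6e-05), NFKB1 (0.65, adjusted p 0.00661) and IRF1 (0.53, adjusted p 0.0236) rose. IRF1 differed between the stimuli by 3.08 (adjusted p 6.16e-10). STAT2, IRF3 and IRF9 passed in none of the comparisons. Their log2 fold changes after ADP-heptose were -0.14, 0.44 and -0.45. Of 7 interferon genes IFNE was tested and rose after ADP-heptose (1.37, adjusted p 0.0135), while the other 6, IFNB1 and IFNG among them, had at most 4 counts.

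Genes with the pattern most like each member across the 9 libraries were ranked by Pearson's r of log2 CPM among 12164 other genes, as a description, since the libraries share the 3 conditions. CCL20 was closest to TNFAIP2 (r 0.9995) and CXCL1 (0.9938). CX3CL1 was closest to IFNGR1 (0.9988), a chain of the interferon gamma receptor, and SDC4 (0.9986), a cell-surface proteoglycan. CCL22 was closest to ARHGAP31 (0.9858) and CXCL1 (0.9809). For CXCL10 and CCL2 the closest was the same unnamed identifier, ENSG00000233559 (0.9851 and 0.9873), followed by ULBP2 (0.9806) and TARS1 (0.9857). CXCL11 was closest to BRPF1 (0.9841) and FNDC11 (0.9573), and CXCL16 to TMPRSS13 (0.9562) and CSPG4 (0.9532). CCL28, with no difference between groups past the threshold, still had partners at 0.9296 (MUC5B) and 0.9292 (NCBP1).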

How the data were processed

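RNA of HT-29 cells was poly(A)-enriched and sequenced as paired reads, aligned with HISAT2 and counted per gene with featureCounts, as named in the submitters' processing notes. The authors deposited raw counts, 1 column per library with no pooling. The versions, genome build, annotation and strandedness are not given in the sources used here. The table held 62972 lines for 62710 distinct identifiers, and 232 identifiers listed more than once were kept once.

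A single model of all 9 libraries and 17412 genes was fitted in R 4.3.3 with edgeR 4.0.16, using TMM, the defaults of filterByExpr and the robust quasi-likelihood F test. All adjusted p are edgeR's, Benjamini-Hochberg adjusted over these genes, with a threshold of 0.05 and, where given, 2-fold, which are the thresholds of the study. To give normalized counts, each library was scaled from its effective size to the geometric mean of the 9 effective sizes. Groups came from the treatment labels, and the labels do not say whether replicates came from separate cultures. The study describes its RNA sequencing as drawn from 3 independent experiments. The p-values set the difference between groups against the spread between libraries within groups, with the estimate of that spread shared across genes. With 3 against 3, an exact permutation test cannot give a two-sided p under 0.1.

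Even counts were in excess among low values (58.4% to 61.2% of counts of 1 to 20), so counting intervals take 2 counts as 1 fragment, a choice made after seeing the data. A floor of 6 counts was added as an alternative for the same reason. Intervals and floors cover counting error only. Levels per kilobase use exon lengths of GENCODE 29 (GRCh38), which may not be the authors' annotation. Promoters and motif shares are from RefSeq (GRCh38.p14). The 9 members and all lists were chosen with earlier results of these data known. Named were the members, up to 6 genes a list that passed by size of change, genes within 100 kb and the 2 genes of mean log2 CPM of at least 1 most like each member. Other genes named, such as markers and genes that did not pass, were chosen after their values were seen. Alternatives were DESeq2 1.42.0 and its size factors, library totals, no filter, a mean count of at least 10, only the 6 libraries compared, a replicate block, thinning to the smallest library, and each library left out. Protein sequences were not used here, and values of some listed genes are not reported here.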

Additional observations from a re-analysis of the deposited data

How the results depend on the processing

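The numbers of members past the threshold stayed within 1.5 times of the reported ones in every alternative. Of the calls of single members, 3 were lost in some alternatives. CCL22 after flagellin missed the threshold with the replicate block (log2 fold change 2.33, adjusted p 0.0502) and in 5 fits that each lacked 1 library (2.05 to 2.52). The replicate block took the flagellin count from 3 to 2 members and changed no other call of a member. CXCL11 after ADP-heptose missed it with libraries thinned to the smallest (2.52, adjusted p 0.0501) and in 3 fits that each lacked 1 library (2.43 to 2.87). CXCL16 after ADP-heptose missed it with library totals (0.33, adjusted p 0.0547), where the median of all genes was -0.13. CCL20, CX3CL1, CXCL10 and CCL2 kept their calls in all 17 alternatives for ADP-heptose against either group, as did CCL22. CCL28, never past the threshold, changed sign in 6 of its values. With library totals it was -0.0393 after ADP-heptose (0.0878 relative to the median of all genes there) and -0.0022 between the stimuli. With single libraries left out it ran from -0.0135 to 0.1916 after ADP-heptose (lowest in the fit without non-stimulated replicate 2), from -0.2025 to 0.1346 after flagellin (also above 0, at 0.0784, when non-stimulated replicate 3 was left out) and from -0.0464 to 0.2907 between the stimuli (lowest in the fit that lacked flagellin replicate 1). The bound of CCL2 moved from 11.75-fold to 5.876-fold with the floor of 6 counts, an alternative chosen after seeing the data. Beyond fewer samples where a library was left out, the cause was not tested. Replicate numbers gave no clear pairing of the libraries, since same-numbered libraries correlated at -0.447 to 0.293 over 9 pairs. No library had its own number as the best match in both other groups at once. Depth limits CCL5, CCL2, CXCL11 and CXCL10, whose non-stimulated libraries held 0 to 6 counts each.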
